A study of Mus musculus with 16 samples.

Results

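The comparison set uteri of mice of the genotype named Arg260 against uteri of wild-type (WT) mice when neither group had received estradiol. It rests on 4 Arg260_PLB arrays and 4 WT_PLB arrays, 8 of the 16 samples of the series, chosen by the genotype and treatment in the sample labels. The question was whether the genotype alone changes the uterine transcriptome before any hormone is given, and how large a difference the data still allow. All 8 samples shared 1 protocol: ovariectomy at 4 weeks of age, a wait of 2 to 3 weeks on normal chow, a subcutaneous injection of castor oil with 0 ug/kg of 17beta-estradiol (E2), here called PLB, and sampling 6 h later. Total RNA of the whole uterus was labelled with Cy3 from 200 ng and measured on a one-colour Agilent 60-mer mouse array, 1 array per sample. The other 8 samples, which received 8 ug/kg of E2, served only to give the size of the E2 response in the same probes. How the receptor was altered in the Arg260 mice is not given in the sources used here, and the labels do not say that the replicates are separate animals, so p-values measure the spread between these samples, which may be technical. Whole-uterus RNA pools many cell types, so fewer cells of a type and less RNA per cell cannot be told apart.

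Estrogen receptor alpha, the product of Esr1, is the main estrogen receptor of the uterus. Bound to E2 it acts in the nucleus as a transcription factor on genes such as Pgr, Greb1 and Ltf, and a fraction outside the nucleus starts rapid kinase signalling through Src and phosphatidylinositol 3-kinase. An arginine near the DNA-binding domain of the receptor is known as a site methylated by Prmt1, a step tied to that rapid signalling. Without ovaries the uterus lacks its main source of E2, and estrogen-induced genes sit at their resting level.

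The altered receptor and its classical target come first, and the sequences of 1 probe of each are shown because they tell which part of the transcript the values read: each lies in the coding part for the hormone-binding domain, so it reads the amount of transcript and not the arginine codon. They are the 60-mers as deposited in the scanner files, 5′ to 3′ along the transcript, in lower case throughout as no part is singled out.
Esr1, mm9 chr10:5489352-5489411, minus strand: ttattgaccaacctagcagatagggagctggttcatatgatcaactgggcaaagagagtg
Pgr, mm9 chr9:8961434-8961493, plus strand: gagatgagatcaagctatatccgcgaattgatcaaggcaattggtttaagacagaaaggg

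Levels are log2 intensities minus the log2 of the array's 75th percentile, so 0 is the level of that percentile. The coding probe of Esr1 shown above read -0.06, 0.04, -0.07 and 0.06 on Arg260 replicates 1 to 4 and -0.14, -0.18, -0.10 and -0.01 on WT replicates 1 to 4. The groups overlapped at their edges, and the difference was 0.10 (95% interval -0.07 to 0.27). The brightest Esr1 probe, towards the end of the transcript, read 3.83, 3.88, 3.57 and 3.87 in Arg260 and 3.53, 3.59, 3.78 and 3.67 in WT. Here 3 Arg260 arrays lay above all WT arrays and replicate 3 among them, for a difference of 0.14 (-0.08 to 0.37), or 0.94- to 1.29-fold. The other Esr1 probes differed by 0.21 (-0.09 to 0.51) and -0.21 (-0.71 to 0.29). All 4 Esr1 probes were bounded within 2-fold, meaning that a pair of one-sided moderated tests against log2 differences of -1 and 1, adjusted over all probes, both passed 0.05.

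Pgr, the progesterone receptor, read 2.07, 2.35, 1.66 and 2.83 in Arg260 and 2.33, 2.03, 2.00 and 2.49 in WT on its brightest probe. The groups overlapped fully, and the difference was 0.01 (-0.54 to 0.57), or 0.69- to 1.48-fold. The Pgr probe shown above differed by 0.15 (-0.29 to 0.60) and the third by 0.18 (-0.19 to 0.56), and all 3 were bounded within 2-fold. For scale, E2 changed the brightest Pgr probe by 2.12 in WT. Without Arg260 replicate 3 and WT replicate 2, arrays that stand apart as described below, Esr1 differed by 0.20 (-0.04 to 0.44) and Pgr by 0.14 (-0.40 to 0.69) on their brightest probes.

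**Figure D1:**
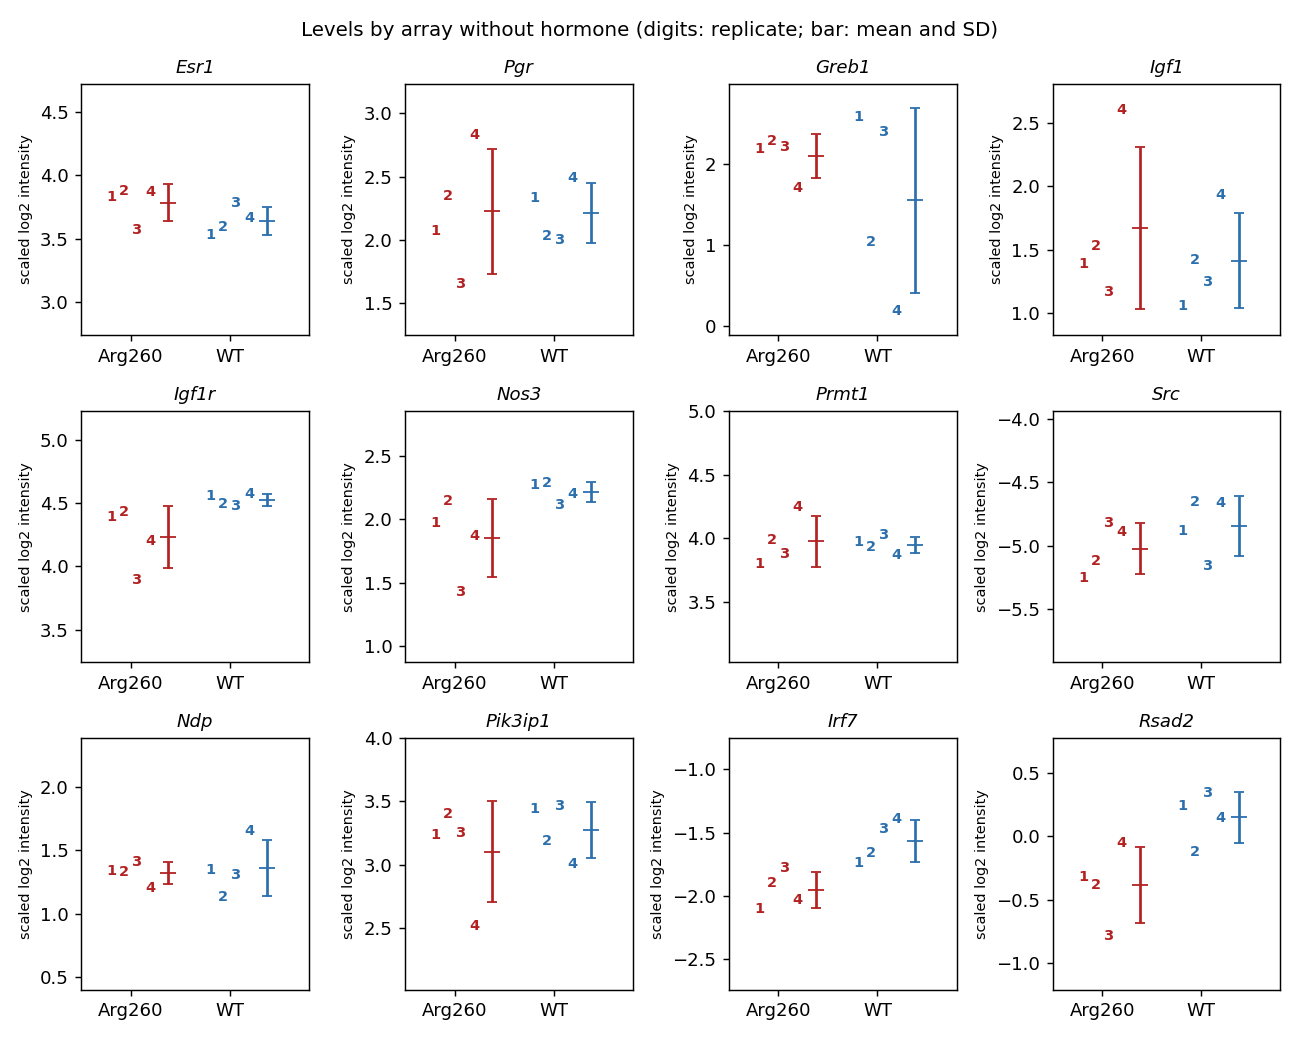
Scaled log2 intensity (y axis, 0 is the array's 75th percentile) of 12 genes on the 4 Arg260 arrays (red) and the 4 WT arrays (blue) without hormone; digits are replicate numbers, and the bar at the right of each group is its mean and SD. Igf1r and Irf7 are the panels whose groups do not overlap, and the WT values of Greb1 spread from 0.19 to 2.58.

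Of the 55681 non-control probes, 36668 (65.9%) stood well over background in 4 or more of the 8 arrays and were tested, 32316 of them in all 8. They stand for 24808 genes or named transcripts, of which 15545 have an official symbol. No probe was saturated, and between 61.7% and 70.6% of the spots of an array were well above background. The number of arrays limits the precision. WT replicate 2 held 150 probes more than 3 log2 units below the median of the other WT arrays, against 3 to 28 on the other 7 arrays; 148 of the 150 are among the 228 probes that have no value for this array in the authors' deposited table, and 146 lie in the first 150 of 384 rows of the array, which hold 39.1% of the non-control spots. Arg260 replicate 3 held 150 probes more than 3 log2 units above the other Arg260 arrays, against 7 to 25 on the other 7 arrays. The part of either pattern in each result was not tested beyond repeating it without these arrays.

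No gene passed the test between the genotypes. limma called 0 of 36668 probes (0%) at an adjusted p under 0.05, with a smallest adjusted p of 0.999. At an unadjusted p under 0.05 there were 941 probes (2.57%), 273 higher and 668 lower in Arg260. That split was 392 higher and 593 lower in the authors' deposited values, and 359 higher and 475 lower without both arrays. The count was 1429 (3.9%) without Arg260 replicate 2. Where no probe differs, p falls under 0.05 in a share of about 0.05 of the probes. Both counts lay below that share, so they show no excess of small p-values. Called per gene the result was likewise 0 of 24808 (0%), with 594 genes (2.39%) at an unadjusted p under 0.05.

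The data set bounds on what could have been missed. A total of 34252 probes (93.4%) were bounded within 2-fold and 28572 (77.9%) within 1.5-fold. The median 95% interval reached 0.30 log2 units to either side, which is 1.23-fold. The median difference without sign was 0.09, and the farther end of the interval had a median of 0.40. Probes well above background on all 8 arrays had their interval inside 2-fold in 95.3% of cases, and the 4352 dimmer probes in 61.5%. The 2416 probes (6.59%) that were not bounded may differ by 2-fold or more. Fewer probes, 33458 (91.2%), had their whole 95% interval inside 2-fold. A bounded probe can thus have an interval that reaches past 2-fold, and for such a probe a 2-fold difference is not excluded by its interval. Without both arrays limma again called 0 probes, 834 had an unadjusted p under 0.05, and 33988 (92.7%) were bounded within 2-fold.

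**Figure D2:**
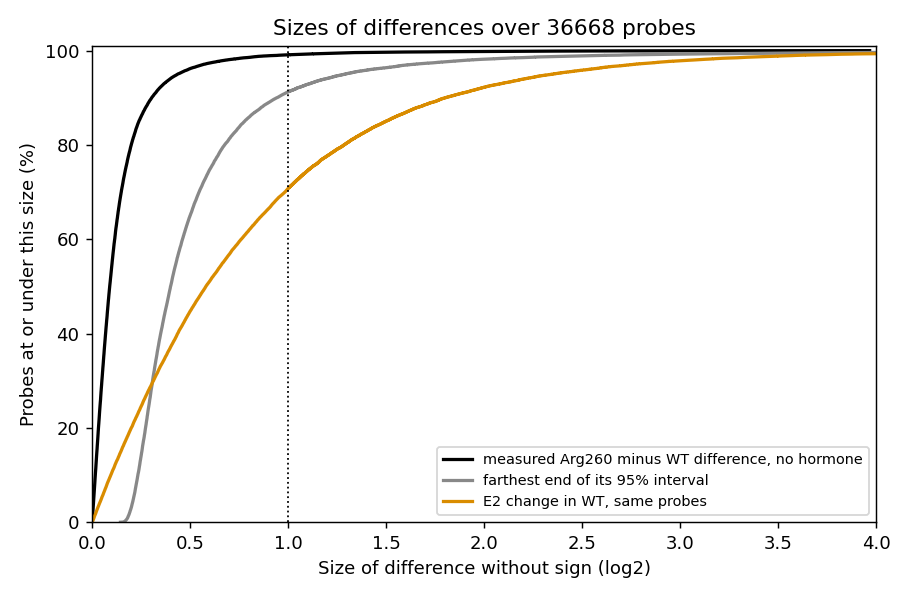
Percent of the 36668 probes (y axis) whose difference without sign is at or under the log2 size on the x axis. The black line is the measured Arg260 minus WT difference without hormone, the grey line the farther end of its 95% interval, and the orange line the E2 change in WT; at a size of 1 (dotted) the grey line stands at 91.2%, while 29.2% of the probes changed by at least 1 with E2.

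No estrogen-induced gene passed the test between the genotypes at rest. Of 40 listed, 37 were tested, 0 were called, 30 (81.1%) were bounded within 2-fold against 93.4% of all genes, and the median difference was 0.06 against -0.02 over all genes, with 22 above 0. Without both arrays 28 (75.7%) were bounded and the median was 0.11, with 26 above 0. Cdkn1a, a cell cycle inhibitor, read -0.27, 0.18, 0.08 and -0.36 in Arg260 and 0.16, 0.35, -0.27 and -0.40 in WT. Its groups overlapped and its difference was -0.05 (-0.51 to 0.40). Mad2l1, a spindle checkpoint gene, differed by -0.05 (-0.32 to 0.22), and Hspa5, a chaperone of the endoplasmic reticulum, by 0.04 (-0.24 to 0.32). Gdf15, a secreted growth factor of the stress response that is not on the list but rose by 9.13 with E2 in WT, differed by 0.06 (-0.37 to 0.49) between the genotypes at rest. Ccnd1, which drives cells into the cycle, was the 1 listed gene with an unadjusted p under 0.05 (0.35, 0.02 to 0.69), and it was bounded within 2-fold.

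Fos (-0.53, -2.31 to 1.25) had the widest interval of the list, and Greb1 and Ltf were also not bounded. Greb1, an estrogen-induced cofactor of the receptor, read 2.18, 2.28, 2.21 and 1.70 in Arg260 but 2.58, 1.03, 2.39 and 0.19 in WT. Ltf, the secreted protein lactotransferrin of the epithelium, read 2.06, 1.68, 1.68 and 0.71 in Arg260 and 2.40, 1.08, 2.20 and 0.10 in WT. Ramp3, a receptor partner for adrenomedullin, read 1.37, 1.13, 1.66 and 1.07 in Arg260 and 1.42, 0.65, 1.44 and 0.37 in WT. In all 3 genes WT replicates 2 and 4 lay below WT replicates 1 and 3, and the groups overlapped. Their differences were 0.55 (-0.61 to 1.70), 0.09 (-1.11 to 1.29) and 0.34 (-0.27 to 0.95), and Ramp3 was bounded within 2-fold. Without both arrays they were 0.34, -0.08 and 0.12.

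Igf1, a growth factor of the stroma, differed by 0.26 (-0.48 to 0.998), with Arg260 replicate 4 at 2.60 and the other 7 arrays between 1.06 and 1.93. Wnt4, a signal of the endometrium, differed by 0.33 (-0.29 to 0.96), and Muc1, a surface mucin, by 0.10 (-0.37 to 0.57). Ihh, a hedgehog signal of the epithelium, was not bounded (0.20, -1.24 to 1.63). Its WT values were -1.22, 1.36, -0.73 and 1.27, which spanned all 4 Arg260 values. Aqp8, a water channel, was not bounded either (0.52, -0.17 to 1.21).

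No gene of the list that E2 lowers passed the test either. All 20 listed were tested, 0 were called, and 19 (95%) were bounded within 2-fold, near the 93.4% of all genes. The median difference was -0.07, with 7 above 0, against 44.4% of all genes. Without both arrays 18 (90%) were bounded and the median was -0.04. Ndp, a Wnt pathway ligand, read 1.34, 1.32, 1.40 and 1.20 in Arg260 and 1.35, 1.13, 1.31 and 1.65 in WT, and the groups overlapped. Its difference was -0.04 (-0.31 to 0.23). Pik3ip1, an inhibitor of phosphatidylinositol 3-kinase, differed by -0.17 (-0.64 to 0.30), Txnip, an inhibitor of thioredoxin, by -0.07 (-0.49 to 0.36), and Ccng2, a cyclin of resting cells, by -0.17 (-0.57 to 0.22). Foxo3, a transcription factor of quiescent cells, had an unadjusted p under 0.05 (-0.31, -0.56 to -0.06). Zbtb16, a transcription factor, was the 1 member not bounded (-0.69, -1.85 to 0.47), with values from 0.05 to 2.00 in Arg260 and from 0.74 to 2.53 in WT.

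The E2 response in WT gives a scale for these bounds; it uses the same WT arrays without hormone, so the values are only set side by side. E2 changed 33 of the 37 estrogen-induced genes and 16 of the 20 estrogen-repressed genes in WT at an adjusted p under 0.05 (limma, all 16 arrays), with median sizes of 2.12 and 1.97 over the tested members. In 32 of the 33 and 16 of the 16 the whole 95% interval of the genotype difference was smaller than the E2 change, against 89.4% of the 16055 genes (64.7% of all tested) that E2 changed in all. Ccnd1 was the exception, where E2 changed the level by 0.50. Both lists hold known E2 targets, and over all genes the median size of the E2 change was 0.57. High shares in the lists thus follow from the choice of genes and say nothing more about the genotype. The genotype intervals of the 2 lists were wider, with median half-widths of 0.57 and 0.38 against 0.29 over all genes.

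**Figure D3:**
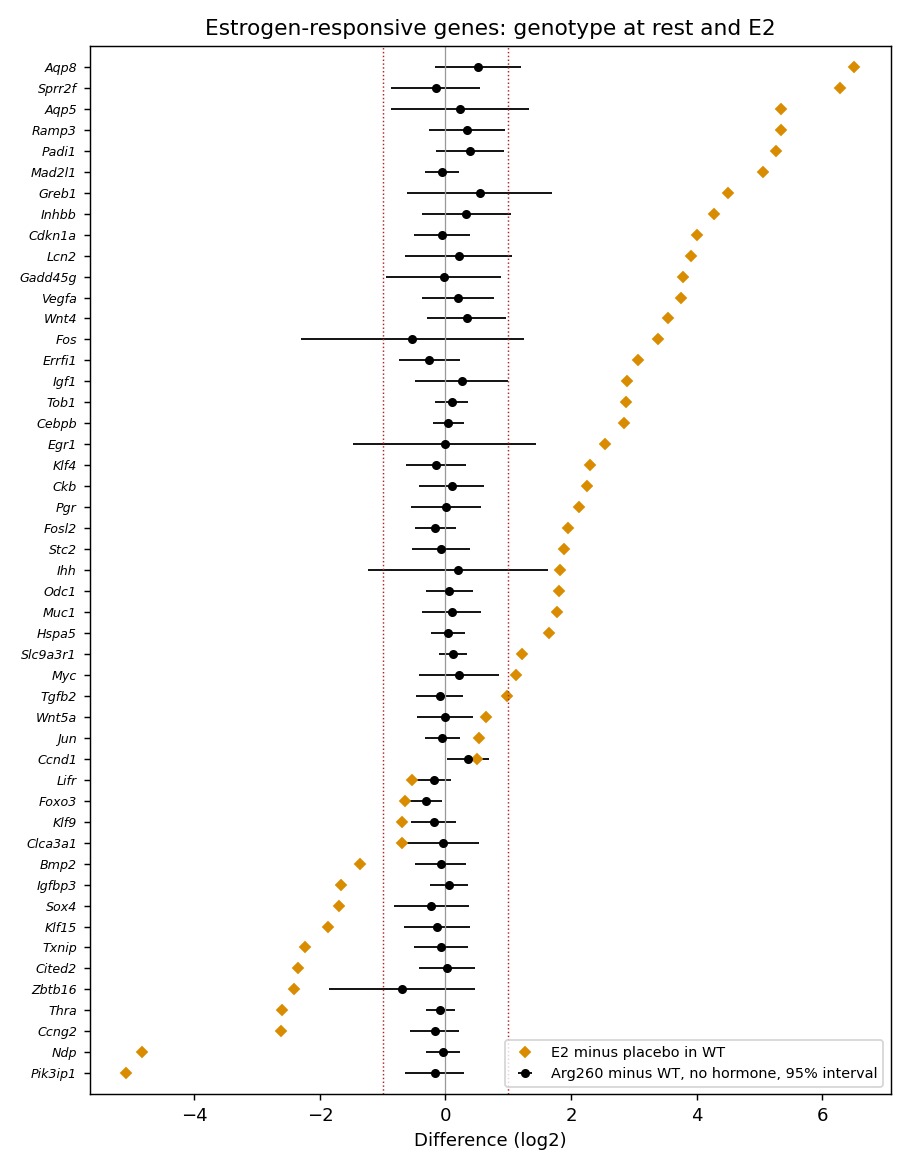
Log2 differences (x axis) of the 49 listed estrogen-responsive genes that E2 changed in WT at an adjusted p under 0.05, ordered by the E2 change. Black points with bars are Arg260 minus WT without hormone and its 95% interval, orange diamonds are E2 minus PLB in WT, and dotted lines mark 2-fold; the E2 changes run from -5.09 for Pik3ip1 to 6.51 for Aqp8, while the genotype differences run from -0.69 to 0.55.

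No gene of signalling by the receptor at the membrane passed the test. Of 23 tested, 0 were called, 22 (95.7%) were bounded within 2-fold, near the 93.4% of all genes, and the median difference was -0.01, with 8 above 0. Without both arrays all 23 were bounded, at a median of 0.05 with 14 above 0. Prmt1, the arginine methyltransferase, read 3.79, 3.98, 3.87 and 4.25 in Arg260 and 3.97, 3.93, 4.02 and 3.87 in WT. Its groups overlapped and its difference was 0.03 (-0.22 to 0.28). Jmjd6, which is reported to remove methyl groups from arginine, differed by 0.16 (-0.06 to 0.37), the kinase gene Src by -0.18 (-0.52 to 0.16), and Pik3r1, the regulatory subunit of phosphatidylinositol 3-kinase, by -0.04 (-0.35 to 0.27). Akt1, Cav1, Strn and Egfr, which encode a downstream kinase, a caveolar coat protein, a scaffold and a growth factor receptor, lay between -0.03 and -0.0017. Lyn, a Src family kinase of blood cells, was the 1 member not bounded (0.52, -0.62 to 1.65). It read -1.13 on Arg260 replicate 3 and -3.59 to -3.05 on the other 7 arrays, and its difference was 0.05 without both arrays.

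Nos3, the endothelial nitric oxide synthase, and Igf1r, the IGF1 receptor, were the 2 members with an unadjusted p under 0.05. Nos3 read 1.97, 2.15, 1.43 and 1.86 in Arg260 and 2.27, 2.29, 2.11 and 2.20 in WT. Only Arg260 replicate 2 reached the WT range, and the difference was -0.36 (-0.70 to -0.02; unadjusted p = 0.0391, limma). Igf1r read 4.39, 4.43, 3.90 and 4.20 in Arg260 and 4.56, 4.49, 4.47 and 4.57 in WT. Its groups did not overlap, and the difference was -0.29 (-0.58 to -0.01; unadjusted p = 0.0442, limma). Over all genes, Arg260 lay wholly below WT in 1.11% and wholly above it in 0.548%. Neither gene passed the adjusted test, both were bounded within 2-fold, and Arg260 replicate 3 was the lowest array of both. Without both arrays they differed by -0.20 (-0.47 to 0.07) and -0.19 (-0.44 to 0.06).

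In the IGF system as a whole 0 of 13 tested genes were called, all 13 were bounded within 2-fold, and the median difference was 0.03. Without both arrays 12 of 13 were bounded, all but Igf1 (0.43, -0.49 to 1.34), and the median was 0.20. The receptors Igf2r (-0.27, -0.56 to 0.02) and Insr (-0.24, -0.46 to -0.02) lay on the same side as Igf1r. The ligand Igf2 (0.11, -0.41 to 0.63) and the binding proteins Igfbp3 (0.06, -0.24 to 0.37) and Igfbp5 (0.08, -0.73 to 0.89) lay above 0. Arg260 replicate 3 was also the lowest array for Igf2r and Insr.

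Of the other steroid receptors, Esr2 differed by -0.01 (-0.23 to 0.21) and the glucocorticoid receptor gene Nr3c1 by 0.04 (-0.14 to 0.21). Of 10 tested genes of the steroid receptor list, which also holds related genes, 0 were called. Bounded were 9 (90%), near the 93.4% of all genes. Esrrb, an estrogen-related receptor and not itself a steroid receptor, was not bounded (0.18, -1.50 to 1.85). Without both arrays 8 were bounded, and the list's median went from 0.06 to 0.12. All 19 tested genes of the receptor coregulator list were bounded within 2-fold, between -0.19 and 0.07. The lowest was Foxa2, a transcription factor also listed with the epithelial markers. Without both arrays all 19 were still bounded, between -0.42 (-0.79 to -0.04) for Foxa2 and 0.16. The region around Esr1 on chromosome 10 showed no called probe either: within 10 Mb, 129 probes of 79 genes were tested, 0 were called, 3 (2.33%) had an unadjusted p under 0.05 and 122 (94.6%) were bounded. Over all probes these 2 shares were 2.57% and 93.4%. The median of the probes around Esr1 was -0.03, with extremes of -0.75 (-1.85 to 0.35) for Epm2a and 0.41 (-0.03 to 0.84) for Nmbr.

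All tested members were bounded within 2-fold in 15 of 39 lists, among them DNA replication (27 genes, median 0.02), ribosome biogenesis (30 genes), protein folding in the endoplasmic reticulum (19 genes, 0.07), oxidative phosphorylation (21 genes, 0.03), glycolysis and hypoxia (21 genes, -0.0021) and the circadian clock (17 genes, -0.06). Over all genes 93.4% were bounded, and over the members of all lists 551 of 622 (88.6%). Without both arrays 26 of 27 DNA replication genes, 29 of 30 ribosome biogenesis genes and 15 of 17 clock genes were bounded. Every member of the other 3 lists named was still bounded. Ribosome biogenesis genes had 27 of 30 members above 0 against 44.4% of all genes, at a median of 0.10, and 0 were called. The list's mean was 1.67, 1.78, 1.63 and 1.98 on the Arg260 arrays and 1.67, 1.69, 1.63 and 1.65 on the WT arrays. Arg260 replicate 4 was the highest, and the groups overlapped. Without that array the list's median was 0.02. Heatr1, a factor of ribosomal RNA synthesis, read 2.67, 2.70, 2.60 and 2.76 in Arg260 and 2.57, 2.42, 2.47 and 2.58 in WT. Its groups did not overlap, and its difference was 0.17 (-0.0034 to 0.34). Without both arrays 29 of 30 lay above 0 at a median of 0.15, against 52.2% of all genes. Over all settings tried the median of this list ran from 0.02 to 0.15.

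Interferon-stimulated genes had 24 of 27 tested members below 0, at a median of -0.09, with 0 called and 25 (92.6%) bounded within 2-fold, near the 93.4% of all genes, of which 44.4% lay above 0. Of the list 2 genes had an unadjusted p under 0.05, against 2.39% of all genes. Irf7, the transcription factor of the type I interferon response, read -2.10, -1.90, -1.78 and -2.03 in Arg260 and -1.74, -1.66, -1.47 and -1.39 in WT. The groups did not overlap, and the difference was -0.39 (-0.64 to -0.13; unadjusted p = 0.00822, limma). Rsad2, an antiviral enzyme, read -0.32, -0.38, -0.78 and -0.05 in Arg260 and 0.24, -0.12, 0.34 and 0.15 in WT. Only Arg260 replicate 4 reached the WT range, and the difference was -0.54 (-0.92 to -0.15; unadjusted p = 0.0117, limma). Other members were nearer to 0, such as Isg15 (-0.08, -0.36 to 0.21), and Cxcl10 lay above it (0.47, -0.57 to 1.52). Without both arrays Cxcl10 was at 0.21 (-0.84 to 1.27). With the values missing from the authors' deposited table left out, it was at 0.12 (-0.80 to 1.04). The list's mean was 0.40 to 0.65 on the Arg260 arrays and 0.37 to 0.80 on the WT arrays, so the groups overlapped. Its median was -0.19 without both arrays, where 26 of 27 lay below 0 and 4 had an unadjusted p under 0.05, against 2.04% of all genes. Left out singly, Arg260 replicate 3, WT replicate 2 and WT replicate 4 moved it to -0.13, -0.14 and -0.06.

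Markers of the uterus's own cell types were present, and 0 were called. All 19 epithelial genes (median -0.09), all 14 genes of blood endothelium (-0.13), all 9 of mesothelium (0.02) and 13 of 14 of the stroma (-0.00075) were bounded within 2-fold, and so were 12 of 14 smooth muscle genes (0.01). Without both arrays the smooth muscle median was 0.22 with 13 of 14 above 0, the stroma median 0.12 with 11 of 14 bounded, the endothelial median -0.05, the epithelial median -0.02 and the mesothelial median 0.05. Krt8, a keratin, differed by -0.02 (-0.42 to 0.39), the smooth muscle actin gene Acta2 by 0.12 (-0.23 to 0.48), the stromal filament gene Vim by -0.14 (-0.34 to 0.06) and the endothelial gene Pecam1 by -0.16 (-0.34 to 0.01). Mki67, a marker of dividing cells, differed by 0.16 (-0.44 to 0.76). Lrrn4, listed with mesothelium, read -0.56, -0.85, -1.004 and -0.80 in Arg260 and -1.11, -1.53, -1.30 and -1.24 in WT. Its groups did not overlap, and its difference was 0.49 (0.20 to 0.78; unadjusted p = 0.00429, limma).

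No fat gene passed the test, though most had a measured difference below 0. Of 18 adipocyte genes tested, 17 lay below 0 at a median of -0.78, and 0 were called. Of the 18, 4 had an unadjusted p under 0.05, against 2.39% of all genes. Bounded within 2-fold were 5 (27.8%), against 93.4% of all genes. Adipoq, the hormone adiponectin, read 0.88, 2.32, 1.05 and 1.74 in Arg260 and 2.67, 3.02, 3.03 and 1.09 in WT. Fabp4, a fatty acid carrier, read 2.55, 4.47, 2.89 and 3.86 in Arg260 and 4.71, 5.42, 5.05 and 3.68 in WT. In both genes 3 WT arrays lay above all Arg260 arrays, while WT replicate 4 fell among them. Their differences were -0.95 (-2.08 to 0.17) and -1.27 (-2.42 to -0.13). Cidec and Plin1, coat proteins of fat droplets, differed by -1.04 (-2.19 to 0.12) and -1.02 (-2.17 to 0.13). Cebpa, a transcription factor not confined to fat, was at 0.05 (-0.32 to 0.42).

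The mean of the adipocyte list was -0.14, 0.96, 0.08 and 0.53 on the Arg260 arrays and 1.21, 1.66, 1.43 and 0.19 on the WT arrays. Arg260 replicates 1 and 3 lay below all WT arrays, and replicates 2 and 4 lay above WT replicate 4. Without both arrays the list's median was -0.44, with 17 of 18 below 0, 1 unadjusted p under 0.05 and 7 bounded. It was -1.17 without WT replicate 4, -1.09 within slide 1 and -0.47 within slide 2. No adipocyte marker was at background on all arrays; Lep, the hormone leptin, was well above background on 4 of the 8. The labels give no dissection details, and how much fat tissue each sample held was not tested.

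The list of lipid storage and fatty acid synthesis shares 4 genes with the adipocyte markers. Of 23 tested, 22 lay below 0 at a median of -0.31, and 0 were called. Of the 23, 4 had an unadjusted p under 0.05, against 2.39% of all genes, and 18 (78.3%) were bounded, against 93.4%. Acly, which makes acetyl-CoA for lipid synthesis, differed by -0.19 (-0.37 to -0.0048). Cpt1b, which carries fatty acids into mitochondria, differed by -0.45 (-0.85 to -0.04). They were the 2 members whose groups did not overlap. Over all genes, Arg260 lay wholly below WT in 1.11%. Fasn, the fatty acid synthase, differed by -0.37 (-0.79 to 0.05) and Scd1, a desaturase, by -0.69 (-1.89 to 0.52). Without both arrays 21 of 23 lay below 0 at a median of -0.13. The part of the adipocyte markers in these values was not tested.

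**Figure D4:**
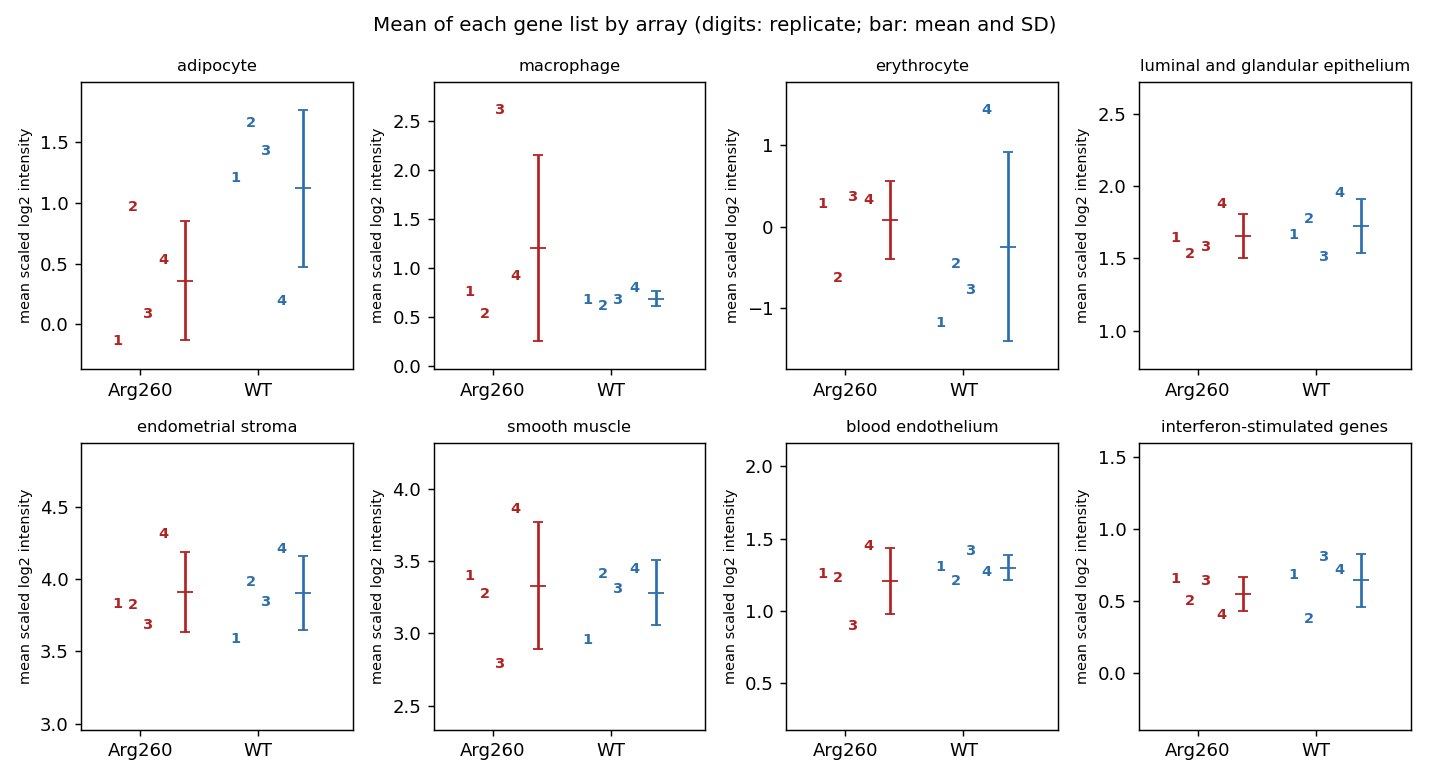
Mean scaled log2 intensity (y axis) of 8 gene lists on the 4 Arg260 arrays (red) and the 4 WT arrays (blue) without hormone; digits are replicate numbers, and the bar beside each group is its mean and SD. Macrophage markers stand at 2.61 on Arg260 replicate 3 and at 0.52 to 0.92 elsewhere, adipocyte markers at 0.19 on WT replicate 4 and 1.21 to 1.66 on the other WT arrays.

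Macrophage markers were higher in 1 Arg260 array. Of 13 tested, 12 lay above 0 at a median of 0.60, against 44.4% of all genes above 0. Of the 13, 0 were called and 5 (38.5%) were bounded within 2-fold, against 93.4% of all genes. Adgre1, a surface receptor that defines mouse macrophages, read 0.37, 0.21, 4.64 and 0.16 in Arg260 and -0.02, 0.08, -0.14 and 0.30 in WT. Only Arg260 replicate 3 was high, and the same held for Aif1 (5.54 against 0.87 to 1.61) and the complement gene C1qa (3.28 against 0.81 to 1.45). Mrc1, the mannose receptor, was instead lowest on that array (0.20 against 0.81 to 1.25). The plasma cell gene Jchain read 6.02 there against 1.22 to 3.42. Without both arrays all 13 macrophage genes were bounded within 2-fold, 6 lay above 0, and the median was -0.0021. Without Arg260 replicate 3 alone it was 0.05. Within slide 1, which holds replicates 1 and 2, it was -0.011, and within slide 2 it was 1.21.

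Red cell genes, which mark blood in the tissue, had 1 of 5 tested members bounded, against 93.4% of all genes. The list's mean was -0.63 to 0.36 on the Arg260 arrays and -1.18 to 1.43 on the WT arrays, so WT spanned Arg260. Hbb-bs, a beta-globin, differed by 0.45 (-0.94 to 1.84). Its values cannot be separated from those of near-identical globin genes.

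The genes with the largest measured differences rested mostly on single arrays. A difference of at least 2-fold was measured for 324 probes, 248 higher and 76 lower in Arg260. The groups did not overlap in 16 of the 324. Over all genes, Arg260 lay wholly below WT in 1.11% and wholly above it in 0.548%. Choosing probes for a large difference raises that share, so the 2 cannot be compared directly. Of the 248, 138 had no value for WT replicate 2 in the authors' deposited table and 62 were more than 3 log2 units above the other Arg260 arrays on replicate 3. Without both arrays 35 of the 248 and 45 of the 76 kept a difference of at least 2-fold in the same direction. Without WT replicate 2 alone, 194 probes differed by at least 2-fold.

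Among well-measured genes with an official symbol, the 10 highest were Fpr1, Timm21, Slc13a3, Tlr1, Fcgr4, Cfap65, Adgre1, Zfp712, Prrc2a and Cd300e, between 1.20 and 1.94. Fpr1, the formyl peptide receptor of phagocytes, read 2.46 on Arg260 replicate 3 and -5.15 to -3.44 on the other 7 arrays. Slc13a3, Tlr1, Fcgr4, Adgre1 and Cd300e were likewise highest on Arg260 replicate 3. Of these Tlr1, a receptor for bacterial lipoproteins, had groups that did not overlap but nearly met. Its lowest Arg260 value was -2.694 and its highest WT value -2.700. Without both arrays Tlr1 differed by 0.15 (-0.12 to 0.42). Timm21, a subunit of the mitochondrial import machinery, read -5.14 on WT replicate 2 and 0.88 to 1.30 elsewhere. Zfp712 and Prrc2a were also far lower on WT replicate 2 than on the other 7 arrays. Without both arrays 1 of these 10, Cfap65, a cilium gene, kept a 2-fold difference (1.82, -0.05 to 3.70). It read -2.57 and -2.74 on Arg260 replicates 1 and 2 and -5.58 to -5.14 on the other 6 arrays. In the authors' deposited values Cfap65 differed by 0.47 (-0.25 to 1.19). Without both arrays the median size over the 10 went from 1.33 to 0.13.

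**Figure D5:**
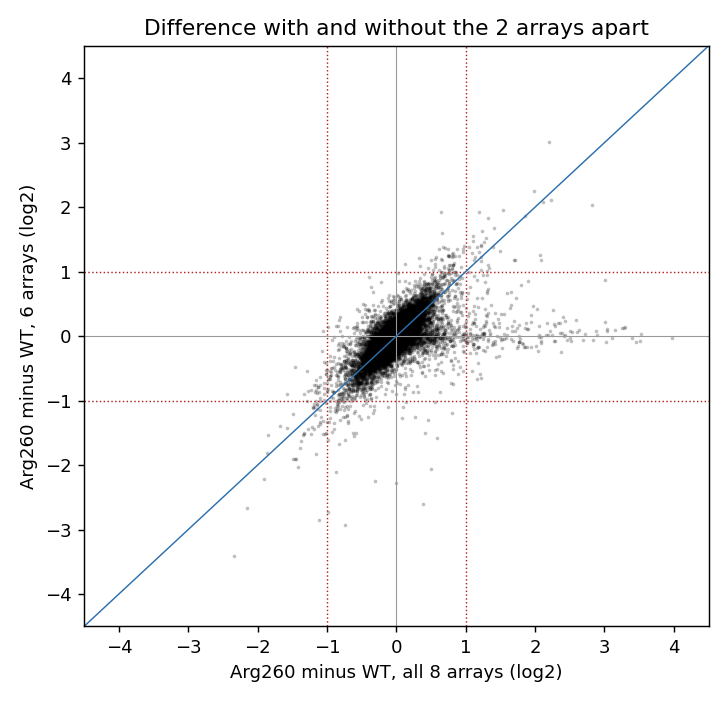
Arg260 minus WT log2 difference without hormone from all 8 arrays (x axis) and from the 6 arrays left without Arg260 replicate 3 and WT replicate 2 (y axis), 1 point per probe; the blue line is equality and the dotted lines mark 2-fold. The arm of points at the right near 0 on the y axis holds probes above 2-fold with 8 arrays that are not with 6, where 35 of 248 stayed above.

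The 10 lowest were Prap1, Pck1, Mup18, Mup9, Mup19, Wfdc21, Fabp4, Mup17, Ces1f and Adig, between -1.58 and -1.13, and 7 of them kept a 2-fold difference without both arrays. Prap1, a secreted protein of the uterine epithelium, read 3.54, 3.98, 2.39 and 2.02 in Arg260 and 3.90, 4.42, 3.79 and 6.14 in WT. WT replicate 4 stood above the rest and the groups overlapped, for a difference of -1.58 (-2.99 to -0.17). Pck1, a gluconeogenic enzyme also made in fat, read -1.55, 0.52, -0.99 and -0.80 in Arg260 and 0.72, 1.35, 1.55 and -0.49 in WT, and its difference was -1.49 (-2.75 to -0.23). Mup18, a major urinary protein, read -4.04, -2.51, -2.19 and -4.34 in Arg260 and -1.32, -1.55, -2.10 and -2.61 in WT. Arg260 replicates 1 and 4 were below all WT arrays and replicates 2 and 3 among them, for a difference of -1.38 (-2.59 to -0.17). Major urinary proteins are a family of near-identical genes, so the 4 Mup probes may read the same transcripts and are uncertain as single genes. Pck1 and Fabp4 are also adipocyte markers of the list above, and Adig is a gene of fat cells. None of the 10 had groups without overlap, and none passed the adjusted test. In the authors' deposited values Wfdc21, Ces1f and Mup17 differed by -0.78, -0.95 and -0.89, less than 2-fold, and the others of the 10 by more than 2-fold.

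The 10 smallest p-values were taken among genes with an official symbol whose probe was well above background on all 8 arrays. They belonged to Tepp, Vcam1, Tmem106a, Sec14l4, Lypd1, Cfc1, Lrrn4, Acsm3, Nyx and Slc13a4. In all 10 the groups did not overlap. Choosing genes for a small p favours such groups, so the lack of overlap is no separate support. Over all genes, Arg260 lay wholly below WT in 1.11% and wholly above it in 0.548%. Vcam1, an adhesion molecule for white blood cells, read -0.63, -0.62, -0.69 and -0.86 in Arg260 and -0.29, -0.29, -0.27 and -0.31 in WT. The groups did not overlap, and the difference was -0.41 (-0.58 to -0.23; unadjusted p = 0.00074, limma). Sec14l4, a lipid-binding protein, read -2.16, -2.15, -2.28 and -1.98 in Arg260 and -1.74, -1.72, -1.77 and -1.70 in WT, again without overlap, and differed by -0.41 (-0.60 to -0.22). Tepp read -4.32, -4.29, -4.48 and -4.48 in Arg260 and -4.77, -4.79, -4.92 and -4.93 in WT. Its Arg260 values were all the higher ones, by 0.46 (0.27 to 0.65). Cfc1, a cofactor of Nodal signalling, differed by -0.81 (-1.24 to -0.39) and Slc13a4, a sulfate transporter, by -1.003 (-1.59 to -0.41), and these were the 2 of the 10 that were not bounded within 2-fold. As their groups did not overlap, leaving out arrays could not change the direction of any of the 10. Their median size was 0.51 without both arrays, as it was with all 8. In the authors' deposited values Tepp differed by 0.18 (-0.04 to 0.40) and Tmem106a by 0.27 (-0.02 to 0.55). There Vcam1 differed by -0.35, Sec14l4 by -0.33, Cfc1 by -0.71 and Slc13a4 by -0.62. The 10 were picked for their p among these genes, and none passed after adjustment over 36668 probes.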

How the data were processed

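Spot intensities in the deposited scanner files, 1 file for each of 16 arrays, came from Agilent Feature Extraction (version 10.10.1.1 in the file headers); its processed signal was background-subtracted and detrended within the array and not normalised between arrays. The authors' deposited series table holds log2 values whose 16 columns share 1 distribution, and was used as an alternative; of the steps behind it only limma is named, in the submitters' processing notes.

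Each processed signal was divided by the 75th percentile of its array (922 to 1188 intensity units, control spots not counted) and taken to log2. Spots marked non-uniform or population outlier were dropped before averaging the spots of a probe. Probes flagged as well above background in 4 or more of the 8 arrays were fitted with limma 3.58.1 in R 4.3.3 (lmFit, eBayes; 2 groups, two-sided, Benjamini-Hochberg over 36668 probes, called under 0.05). Bounds came from a pair of one-sided moderated tests against 2-fold, adjusted likewise, and all intervals are 95% from the same fit. Where a spot was left out, the fit used the remaining arrays. E2 changes came from a fit to all 16 arrays. The 1 probe with the highest mean over the 8 arrays stood for each gene. Probes were named through a table of GRCm38.p6, only for symbols (accessions named 27242 probes, symbols 3579 and synonyms 562, while 24298 kept the file's name), and positions are those of the files, on mm9.

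The genes named are Esr1 and Pgr, a preset set, the 10 highest, 10 lowest and 10 smallest p among official symbols well above background on all 8 arrays (the extremes), and the extreme members of each list; other list members named as examples were picked after their values were seen. The members and the 39 lists were chosen with earlier results of these data known. Lists are described by counts and medians, with no set test. Some genes are not reported here. The fit was tested on simulated data. Alternatives covered left-out arrays, blocks, slides, scaling, background correction, filters, the variance prior and the bound; 2 were added after seeing the data.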

Additional observations from a re-analysis of the deposited data

Results flagged for a closer look

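In 27 of 344 groups of 4 arrays examined (7.85%), 1 array stood apart from the other 3 by Dixon's test at its 95% critical value for 4 samples. Chance gives about 1 in 20 groups, but the groups examined include genes named for their large differences, several of which rest on 1 array, so the share is no test against that rate. Arg260 replicate 3 gave 9 of the 27 and WT replicate 2 gave 8. No cause was tested.

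On Arg260 replicate 3, genes of phagocytes and a transporter stood high: Adgre1 at 4.64 (0.16 to 0.37 on the other 3 arrays of its group), Fpr1 at 2.46 (-4.31 to -4.03), Tlr1 at 2.01 (-2.69 to -2.37), Cd300e at -0.36 (-2.94 to -2.59) and Slc13a3 at 2.32 (-3.23 to -2.37). Genes of vessels and stroma and probes of Esr1 stood low on the same array. Flt1, a receptor for vascular growth factor, was at 1.66 (2.59 to 2.78) and Pdgfrb, a receptor of pericytes and stroma, at 2.35 (2.65 to 2.70). The brightest Esr1 probe was at 3.57 (3.83 to 3.88) and another Esr1 probe at -0.17 (0.71 to 0.76).

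On WT replicate 2 all 8 values were low. Idi1, an enzyme of cholesterol synthesis, was at -8.36 (-0.67 to -0.26), Timm21 at -5.14 (1.04 to 1.07), Zfp712 at -5.10 (0.00 to 0.13) and Prrc2a at -3.34 (0.93 to 1.17). Cd300e was at -5.21 (-2.85 to -2.59), Fcgr4 at -3.94 (-3.29 to -3.18), Tlr1 at -3.18 (-2.71 to -2.70) and the endothelial gene Plvap at -0.22 (0.10 to 0.13).

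On Arg260 replicate 4, the tight junction gene Cldn3 was at 4.91 (4.40 to 4.47), the elastin gene Eln at -0.89 (-1.94 to -1.89) and Greb1 at 1.70 (2.18 to 2.28). On Arg260 replicate 2, the T cell gene Cd8b1 was at -5.87 (-4.89 to -4.82), the globin gene Hbb-bs at -1.68 (-0.59 to -0.40) and the mean of the red cell list at -0.63 (0.28 to 0.36). On WT replicate 4, Ces1f was at -2.996 (-1.9998 to -1.92), Lep at -7.67 (-5.05 to -4.75) and Pdgfrb at 3.10 (2.69 to 2.75). On WT replicate 1, Snap25, a gene of nerve endings, was at 3.78 (3.95 to 3.98).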

How the results depend on the processing

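limma called 0 probes under each of 26 alternatives; the smallest adjusted p among them was 0.371, without Arg260 replicate 2, and the smallest in the analysis as reported was 0.999. Unadjusted p-values under 0.05 numbered 802 to 1429 with 1 array left out and 1456 with array weights. Probes bounded within 2-fold ran from 33498 to 34186 with 1 array left out, and were 33416 (91.3%) within slide 1, 29737 (81.1%) within slide 2, 44934 of 55681 (80.7%) with no filter, 36007 (98.2%) after normexp and 35197 of 36009 (97.7%) in the authors' deposited values. Around Esr1, 75 probes in place of 122 were bounded with 1 probe per gene, which tests fewer probes. Leaving out the values missing from the deposited table, an alternative chosen after seeing the data, gave 34442 bounded and 194 probes of at least 2-fold, and leaving out Arg260 replicate 3 as well gave 34376 and 165.

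The brightest Esr1 probe ran from -0.0067 within slide 2 to 0.29 within slide 1 (0.03 to 0.56), and from 0.11 to 0.22 with 1 array left out. Its unadjusted p was 0.0378 (limma) without Arg260 replicate 3. In the authors' deposited values it differed by 0.19 (0.0007 to 0.38, unadjusted p = 0.0493, limma). It did not pass the adjusted test in either. Pgr ran from -0.19 to 0.20 and changed sign in 5 of 26 alternatives.

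With the replicate number as a block, limma called 0 probes, 1194 had an unadjusted p under 0.05, 34635 were bounded, and Esr1 lay between -0.16 and 0.44. Deviations of same-numbered arrays correlated at 0.0232, 0.063, 0.0857 and 0.246, and 2 of 4 Arg260 arrays correlated best with their own number, so the numbers were not taken as pairs. The 4 arrays per group and signals near background limit the bounds.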

Other observations

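Immune and muscle markers outside the groups described in the report had wide bounds, and none was called. Of 8 genes of B and plasma cells 3 were bounded within 2-fold, at a median of 0.30 that became -0.34 without Arg260 replicate 3 and WT replicate 2, and of 15 genes of T and NK cells 11 were (0.05). Of 10 genes of mast cells and eosinophils 6 were bounded (0.29), with Fcer1a, a subunit of the IgE receptor, at 0.83 (-0.40 to 2.06). Of 9 neutrophil genes 5 were bounded, with Il1b, an inflammatory cytokine, at 0.41 (-1.33 to 2.15), and of 7 dendritic cell genes 6. Of 9 striated muscle genes 6 were bounded; Mylpf, a myosin light chain of fast muscle, differed by -1.68 (-3.09 to -0.27) and was well above background on 4 arrays. Of 9 genes of ovary and oviduct 8 were bounded, all 6 of lymphatic endothelium, all 9 of nerve and Schwann cells, and 4 of 5 of brown fat.

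Among the pathways, all 14 heat shock genes (median -0.02) and all 16 genes of antigen presentation (-0.02) were bounded within 2-fold. Of 23 mitosis genes 22 were (0.08), of 28 genes of Wnt signalling and uterine patterning 27 (-0.0093), and of 27 fibrillar matrix genes 24 (-0.0035), where Tnc, a matrix protein of remodelling tissue, was at 0.66 (-0.32 to 1.63). Of 24 early-response genes 20 were bounded (-0.12), with Fos, a transcription factor, at -0.53 (-2.31 to 1.25). Of 24 genes of cholesterol synthesis 23 were bounded (0.12); Idi1 was at 2.25 (-1.62 to 6.13), and at 0.41 without both arrays.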
